A study of Xenopus laevis with 6 samples.

Results

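Genes of sterol and lipid synthesis were examined in whole Xenopus laevis embryos that had received a neil2 Morpholino (MO) or a control MO. The set consists of 40 gene symbols for the enzymes that make cholesterol and fatty acids, the factors that regulate them and the proteins that take up, move and export sterol. A feature of the count table was taken as a member if its name, without the final .L or .S, was one of these symbols. X. laevis is allotetraploid, and the suffixes tell apart the homeologs of a gene, L from the longer and S from the shorter chromosome of each homeologous pair. Of the 40 genes, 39 were found, as 68 of 44958 features, and nr1h3 matched no feature name. Both homeologs were listed for 29 genes, only the L copy for 9 (mvk, pmvk, mvd, tm7sf2, npc1, stard4, acaca, acacb and fasn) and only the S copy for lss.

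The groups were neil2 MO and control MO, with 3 libraries each. All embryos came from in vitro fertilization, received 40 ng of MO in the animal hemisphere at the 1-cell stage and were collected at stage 23, an early tailbud stage. Each library was made from polyadenylated RNA of a pool of 6 whole embryos. The MOs were antisense oligonucleotides designed to block translation, so the level of the neil2 transcript does not measure the knockdown. Neil2 is a DNA glycosylase that removes oxidized bases from DNA, and both groups carried an MO, so uninjected embryos were not part of the comparison. In bulk RNA of whole embryos, fewer cells of a type and less RNA per cell cannot be told apart.

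Cholesterol is built from acetyl-CoA. The mevalonate pathway turns acetyl-CoA into isoprenoid units, farnesyl diphosphate synthase joins these units, and the branch from squalene onward closes the rings and trims the sterol. In vertebrates the SREBP transcription factors are held in the endoplasmic reticulum by Scap and Insig proteins when sterol is plentiful and are released when it is scarce, after which they activate genes of sterol and fatty acid synthesis and the LDL receptor. Early Xenopus embryos also carry a large store of yolk and maternal lipid.

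Total counts per library lay between 11534725 and 24034094, and between 30822 and 32968 features had at least 1 read. The raw counts of neil2.L were 5, 4 and 15 in neil2 MO and 3, 4 and 3 in control MO libraries. Member features took between 0.0916% and 0.108% of all counted reads of a library. Levels are given as CPM, the deposited count divided by the library total and scaled to 1000000 reads. A floor of 3 reads was between 0.125 and 0.260 CPM, depending on the library, and it covers counting error only. Reads were counted per feature and not per length of transcript, so CPM values of different genes, or of L and S copies, were not ranked against each other.

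The members had nearly the same summed level in both groups. Their summed CPM was 1085, 916 and 1079 in neil2 MO and 1060, 925 and 1003 in control MO libraries, and the groups overlapped. Features with many reads weigh most in such a sum, among them dhcr7.S with between 109 and 144 CPM. At the level of single features, 46 of 68 had at least 1 CPM in every library, and hsd17b7.L and sqle.L were at or under the floor in every library.

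Of the 68 features, 57 had enough reads to receive an adjusted p-value. A feature was called raised or lowered if the Benjamini-Hochberg adjusted p-value of the DESeq2 Wald test, taken over all 23457 features tested, was below 0.1 and the log2 fold change exceeded 0.5 in size. Fold changes are neil2 MO over control MO throughout. None of the 57 members was called raised, with 1.17% of all features raised, and none was called lowered, with 1.12% of all features lowered. An unadjusted p-value below 0.05 was found for 6 members, or 10.5%, against 9.84% of all features tested. The quasi-likelihood test of edgeR also called 0 members in either direction, where it called 0.298% of all features raised and 0.294% lowered, and 6 of 57 members (10.5%) had an unadjusted p-value below 0.05 in that test, against 10.3% of all features. The lowest adjusted p-value of a member was 0.156 with DESeq2 (acaca.L) and 0.313 with edgeR (elovl5.S).

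The fold changes of the tested members ranged from -0.63 for fdps.L to 1.17 for acaca.L on the log2 scale. Their median was 0.10, against a median of 0.012 over all features tested. The point estimate was above 0 for 37 members (64.9%) and below 0 for 20, and it was above 0 for 51.7% of all features. The median standard error was 0.278 for members and 0.252 for all features. For 36 of 57 members (63.2%) the 95% interval of the log2 fold change lay inside a 2-fold change in either direction, against 70.2% of all features. For the other members a 2-fold change was not excluded by the interval, and an adjusted p-value above the threshold does not show that their levels were equal.

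**Figure D1:**
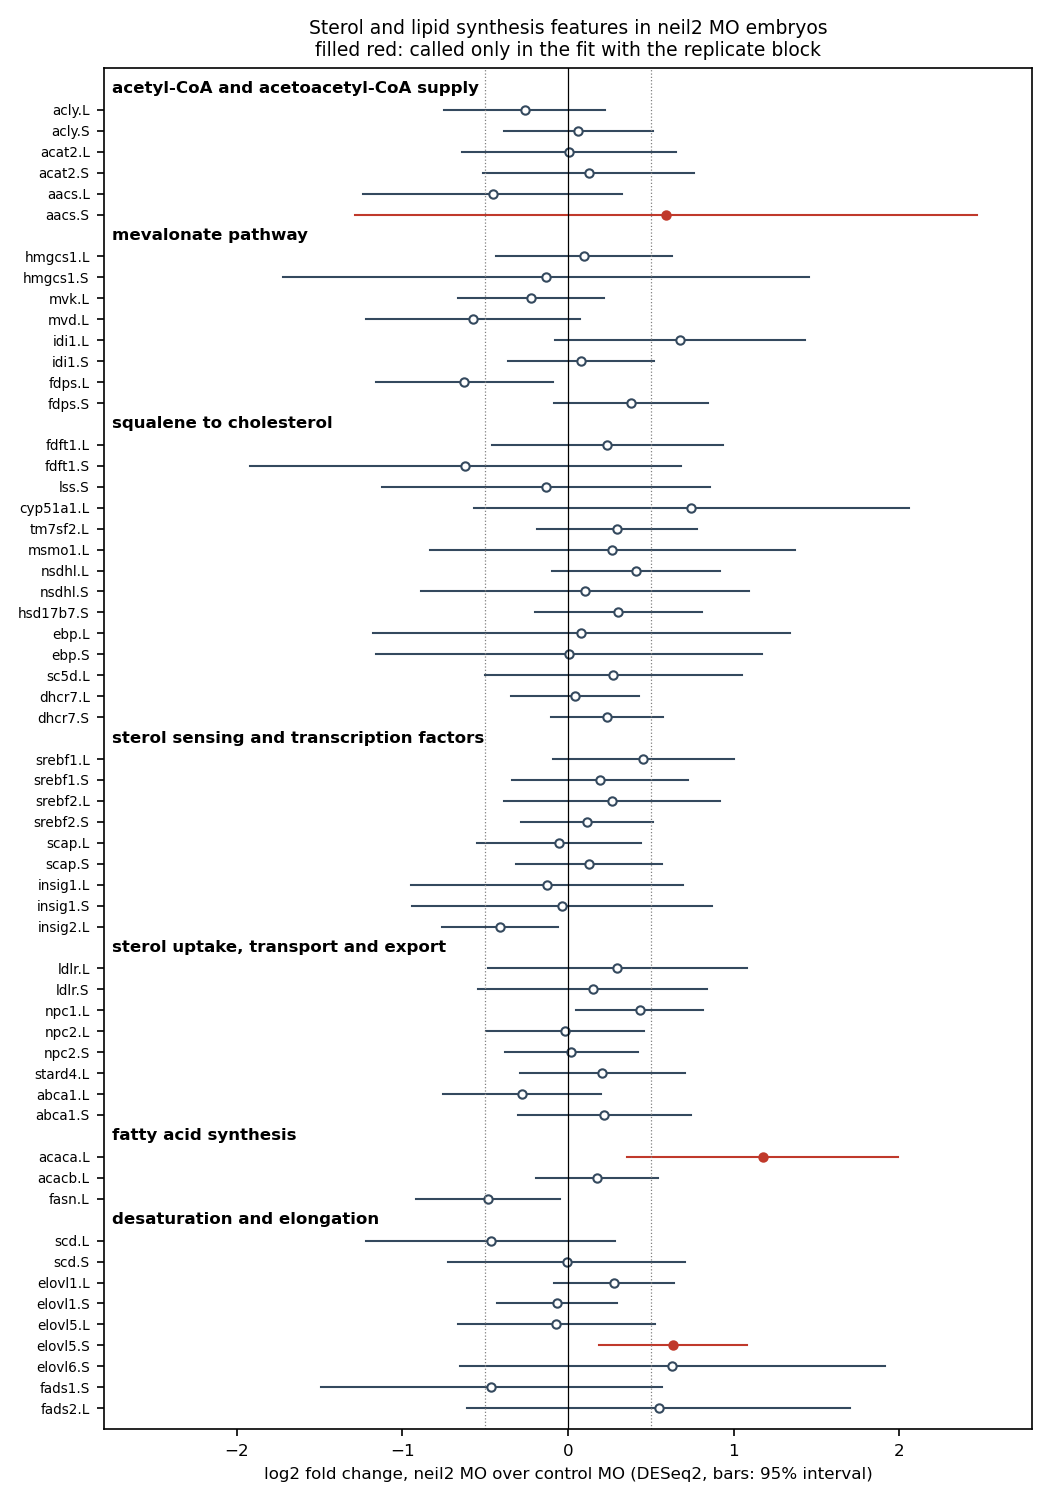
Log2 fold change (neil2 MO over control MO, horizontal axis) of the 57 tested features, by role, with 95% intervals as bars and the effect threshold of 0.5 as dotted lines. No feature passed in the fit without replicate number, and the 3 filled red points (aacs.S, acaca.L, elovl5.S) passed when replicate number was a term of the fit.

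Libraries of equal replicate number deviated together from their group means, so a fit with replicate number as a block was made as well. With the block, DESeq2 tested 53 members and called 3 of them raised (5.66%, where 3.14% of all features were raised) and 0 lowered (2.74% of all features). The 3 were acaca.L, elovl5.S and aacs.S. edgeR with the same block called 4 members raised (7.02%, against 4.11% of all features), namely these 3 and idi1.L, and 3 members lowered (5.26%, against 5.27% of all features), namely fdps.L, fasn.L and mvd.L. When both libraries of a replicate number were left out of the DESeq2 fit with the block, in an alternative added after the data were seen, 0 members were called raised in each of the 3 fits of 4 libraries. The share of all features called in these smaller fits is not given, so these counts are not a result about the members. The fold changes of acaca.L, elovl5.S and aacs.S stayed positive in these fits. Without replicate 3, acaca.L received no adjusted p-value and could not be called. Without replicates 1, 2 and 3 in turn, the log2 fold change was 1.21, 1.45 and 1.10 for acaca.L, 0.68, 0.57 and 0.67 for elovl5.S, and 0.93, 0.46 and 0.60 for aacs.S. The standard error of acaca.L was between 0.488 and 0.620 in them, against 0.385 with all libraries. The fit without replicate 3 called fasn.L lowered, with a log2 fold change of -0.74 and an adjusted p-value of 0.0569.

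The groups were also compared by overlap alone. In CPM, every neil2 MO library lay above every control MO library for acaca.L, elovl5.S and npc1.L, which is 5.26% of the members tested, against 6.13% of all features. Every neil2 MO library lay below every control MO library for mvd.L, fdps.L, insig2.L and fasn.L, which is 7.02% of the members, against 10.3% of all features. In 19 of 57 members (33.3%) the difference had the same sign in all 3 pairs of equally numbered libraries, against 44.8% of all features.

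The largest fold change among the members tested was that of acaca.L, acetyl-CoA carboxylase alpha, which makes the malonyl-CoA that fatty acid synthase uses. It had 4.89, 4.13 and 2.83 CPM in neil2 MO libraries, from 90, 75 and 68 reads. In control MO libraries it had 2.03, 2.36 and 0.954 CPM, from 42, 37 and 11 reads. The lowest neil2 MO library was above the highest control MO library, and replicate 3 was the lowest of its group on both sides. Its log2 fold change was 1.17 ± 0.42 (SE), with an adjusted p-value of 0.156 in DESeq2. With the replicate block it was 1.24 with an adjusted p-value of 0.0261, which passed the threshold.

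Fatty acid synthase, fasn.L, builds palmitate from malonyl-CoA. It had 13.6, 11.0 and 16.9 CPM in neil2 MO and 21.8, 20.9 and 17.4 CPM in control MO libraries. Its groups separated in the direction opposite to acaca.L, and in replicate 3 the gap was small. The log2 fold change was -0.49 ± 0.22 (SE), with an adjusted p-value of 0.399 in DESeq2, 0.139 in DESeq2 with the replicate block and 0.0561 in edgeR with the block. The third enzyme of this group, acacb.L, the acetyl-CoA carboxylase associated with mitochondria in mammals, had 47.1, 43.6 and 55.0 CPM in neil2 MO and 47.7, 48.9 and 37.1 CPM in control MO libraries, and its groups overlapped.

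**Figure D2:**
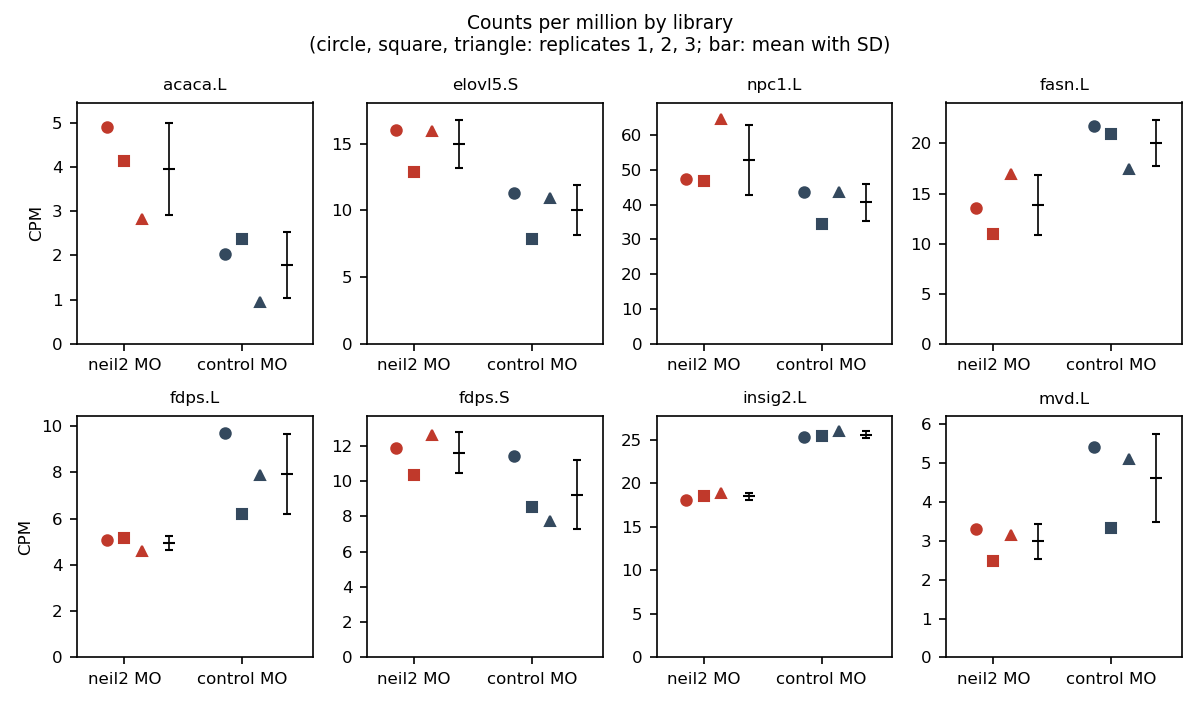
CPM (vertical axes, from 0) of 8 features in the neil2 MO libraries (red, left) and control MO libraries (blue, right), with circle, square and triangle for replicates 1, 2 and 3 and bars for the mean with SD. The groups do not overlap for acaca.L, elovl5.S and npc1.L (neil2 MO higher) or for fasn.L, fdps.L, insig2.L and mvd.L (neil2 MO lower), while fdps.S overlaps.

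Among the elongases and desaturases, which lengthen fatty acids and add double bonds, 4 of 9 tested features had a fold change above 0 and 5 below. The S copy of elovl5, an elongase of polyunsaturated fatty acids, had 16.0, 12.9 and 16.0 CPM in neil2 MO and 11.3, 7.86 and 10.9 CPM in control MO libraries. All 3 neil2 MO libraries were above all 3 control MO libraries, and replicate 2 was the lowest of its group on both sides. Its log2 fold change was 0.63 ± 0.23 (SE), with an adjusted p-value of 0.168 in DESeq2. With the block the log2 fold change was 0.64 and the adjusted p-value 0.0265. The L copy of elovl5 had 7.66, 4.51 and 7.86 CPM in neil2 MO and 9.25, 5.37 and 7.20 CPM in control MO libraries, with a log2 fold change of -0.072 ± 0.30 (SE). Its groups overlapped.

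The remaining features of this group were either close between groups or shallowly read. The elongase elovl1, which acts on very long saturated chains, had log2 estimates of 0.28 ± 0.18 (SE) in its L copy and -0.067 ± 0.19 (SE) in its S copy. The stearoyl-CoA desaturase scd had -0.47 ± 0.38 (SE) for its L copy and -0.0095 ± 0.37 (SE) for its S copy. Of elovl6, fads1 and fads2, the elongase and front-end desaturases, elovl6.S, fads1.S and fads2.L were tested, with standard errors between 0.526 and 0.655, and the interval of each reached past a 2-fold change in 1 direction.

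The mevalonate pathway showed no common direction. Of its 8 tested features, 4 had a fold change above 0 and 4 below. Farnesyl diphosphate synthase, the last enzyme before the branch to squalene, had copies with fold changes of opposite sign. The L copy, fdps.L, had 5.05, 5.17 and 4.62 CPM in neil2 MO and 9.68, 6.20 and 7.89 CPM in control MO libraries. All neil2 MO libraries were below all control MO libraries. Its log2 fold change was -0.63 ± 0.27 (SE), with an adjusted p-value of 0.353 in DESeq2 and 0.0489 in edgeR with the block. The S copy, fdps.S, had 11.8, 10.3 and 12.6 CPM in neil2 MO and 11.4, 8.49 and 7.72 CPM in control MO libraries, with a log2 fold change of 0.38 ± 0.24 (SE). The counts of both copies together gave a log2 fold change of -0.0014 ± 0.21 (SE).

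Idi1 interconverts isopentenyl and dimethylallyl diphosphate. Its L copy had 4.46, 3.19 and 3.20 CPM in neil2 MO and 3.34, 1.72 and 1.91 CPM in control MO libraries. Each neil2 MO library was above the control MO library of the same number, but the groups overlapped. DESeq2 gave a log2 fold change of 0.67 ± 0.38 (SE), with an adjusted p-value of 0.617, against 0.0719 in edgeR with the block. The S copy had 16.4, 15.8 and 13.3 CPM in neil2 MO and 17.0, 15.6 and 12.0 CPM in control MO libraries, which lay close together within each replicate number.

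Mevalonate diphosphate decarboxylase, mvd.L, had 3.32, 2.48 and 3.16 CPM in neil2 MO and 5.42, 3.32 and 5.11 CPM in control MO libraries. The highest neil2 MO library and the lowest control MO library were both at 3.32 CPM when rounded, so the separation was by a narrow gap. The log2 fold change was -0.57 ± 0.33 (SE), with an adjusted p-value of 0.627 in DESeq2 and 0.0957 in edgeR with the block. For mevalonate kinase, mvk.L, the estimate was -0.22 ± 0.22 (SE), and phosphomevalonate kinase, pmvk.L, with between 8 and 13 reads per library, was not tested.

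Upstream of this pathway, acly makes cytosolic acetyl-CoA from citrate, acat2 joins acetyl-CoA units and aacs makes acetoacetyl-CoA from acetoacetate. Of their 6 features, 4 had a fold change above 0 and 2 below. The S copy of aacs had 19.3, 19.6 and 3.99 CPM in neil2 MO and 17.3, 10.2 and 2.34 CPM in control MO libraries. Each neil2 MO library was above the control MO library of the same number, and replicate 3 was far below replicates 1 and 2 in both groups. Without the block its log2 fold change was 0.59 ± 0.96 (SE), with an adjusted p-value of 0.974. With the block it was 0.66 ± 0.23 (SE), with an adjusted p-value of 0.0693. The L copy, aacs.L, had 4.51, 2.42 and 3.12 CPM in neil2 MO and 7.02, 4.60 and 2.51 CPM in control MO libraries, with a log2 fold change of -0.46 ± 0.40 (SE) and overlapping groups.

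The branch from squalene to cholesterol was the largest role group and held the most features with a positive estimate. Of its 14 tested features, 12 had a fold change above 0 and 2, fdft1.S and lss.S, below. The share above 0 was 51.7% over all features tested. Their median standard error in this branch was 0.45. The median log2 fold change of the branch was 0.24, and no feature of it was called by DESeq2 or edgeR, with or without the block. The summed level of all 20 features of the branch was 237, 222 and 230 CPM in neil2 MO and 199, 187 and 225 CPM in control MO libraries. The groups overlapped, because control MO replicate 3 lay above neil2 MO replicate 2. Reads of dhcr7.S made up most of this sum. It is a copy of the reductase that makes cholesterol from its last precursor, and it had 137, 143 and 141 CPM in neil2 MO and 109, 118 and 144 CPM in control MO libraries. Its log2 fold change was 0.23 ± 0.17 (SE), with an adjusted p-value of 0.779.

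Within this branch, nsdhl removes a carboxyl group in the demethylation of the ring. The L copy had 16.2, 11.5 and 18.2 CPM in neil2 MO and 13.8, 8.43 and 13.6 CPM in control MO libraries. The neil2 MO library was above the control MO library in each number, and the groups overlapped. DESeq2 gave a log2 fold change of 0.41 ± 0.26 (SE), with an adjusted p-value of 0.691. In edgeR with the block the adjusted p-value was 0.0835 at a log2 fold change of 0.40, below the effect threshold. The S copy, nsdhl.S, had 1.74, 0.935 and 2.62 CPM in neil2 MO and 1.89, 1.02 and 2.25 CPM in control MO libraries. The sterol reductase tm7sf2.L and the ketoreductase hsd17b7.S had log2 fold changes of 0.29 ± 0.25 (SE) and 0.30 ± 0.26 (SE). The squalene synthase copies fdft1.L and fdft1.S had 0.24 ± 0.36 (SE) and -0.62 ± 0.66 (SE).

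Several steps of this branch were read too shallowly for a test of both copies. Squalene epoxidase, sqle, had between 4 and 12 reads per library for its S copy and between 0 and 1 for its L copy. The S copies of cyp51a1, msmo1 and sc5d had between 0 and 9 reads per library, and hsd17b7.L had between 0 and 1. None of these features received an adjusted p-value. Of them, sc5d.S had 2, 1 and 3 reads in neil2 MO and 6, 4 and 5 reads in control MO libraries, which is 0.109, 0.055 and 0.125 CPM in neil2 MO and 0.290, 0.255 and 0.433 CPM in control MO libraries. Its groups did not overlap, with every neil2 MO library at or under the floor of 3 reads. The log2 fold change of sc5d.S was -1.68 ± 1.20 (SE), outside the range of the tested members. Counting those of the other roles (pmvk.L, insig2.S, elovl6.L, fads1.L and fads2.S), 11 member features were not tested, with mean normalized counts between 0.257 and 10.3. Besides sc5d.S, the groups did not overlap in CPM for insig2.S. It had 0.326, 0.275 and 0.416 CPM in neil2 MO and 0.436, 0.830 and 0.433 CPM in control MO libraries. These came from 6, 5 and 10 reads in neil2 MO and 9, 13 and 5 reads in control MO libraries, which overlap. The gap from 0.416 to 0.433 CPM was smaller than 1 read of control MO replicate 3 (0.0867 CPM). The shares of non-overlapping features given above cover tested features only.

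**Figure D3:**
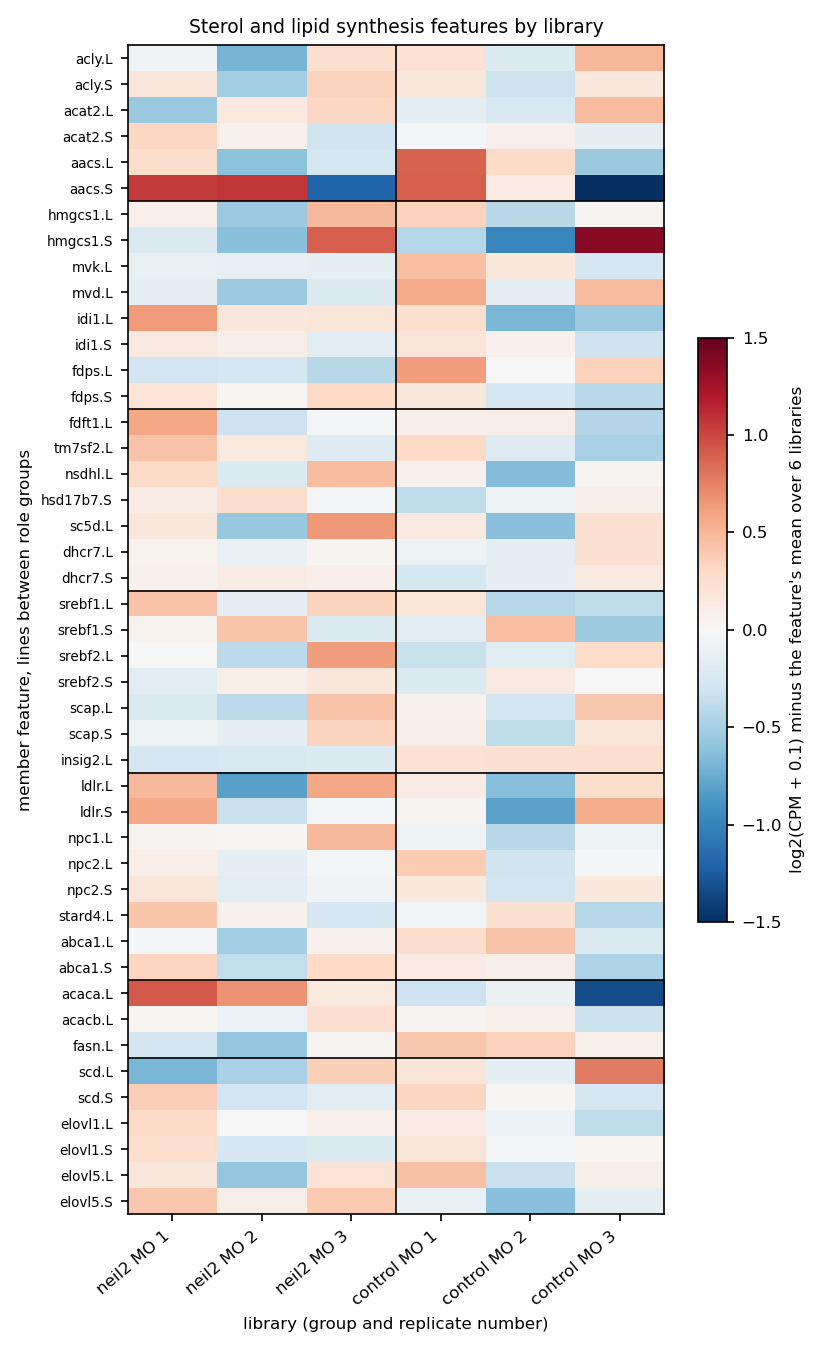
Level of the 45 features whose normalized count averaged 50 or more, by library (columns, neil2 MO left, control MO right), as log2(CPM + 0.1) minus the mean of the feature over the 6 libraries, with the colour scale cut at its end values. Rows such as aacs.S and hmgcs1.S change colour with replicate number in both groups, and insig2.L is uniformly below its mean in neil2 MO and above it in control MO libraries.

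The sterol sensors and transcription factors had no called member. All 9 tested features had an interval inside a 2-fold change, and 5 had a fold change above 0 and 4 below. The feature insig2.L, which encodes a retention factor for Scap in the endoplasmic reticulum, had 18.1, 18.5 and 18.9 CPM in neil2 MO and 25.3, 25.4 and 26.0 CPM in control MO libraries. Libraries of a group were close to each other and the groups did not overlap. DESeq2 gave a log2 fold change of -0.41 ± 0.18 (SE), smaller than the effect threshold, with an adjusted p-value of 0.345, and of 0.115 with the block. In edgeR with the block the adjusted p-value was 0.0395 at a log2 fold change of -0.43, so insig2.L was not called there because of its effect size. The related insig1.L and insig1.S had log2 fold changes of -0.13 ± 0.42 (SE) and -0.037 ± 0.46 (SE).

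Of the SREBP genes, srebf1.L had 9.89, 6.66 and 9.28 CPM in neil2 MO and 8.38, 5.43 and 5.64 CPM in control MO libraries. Its log2 fold change was 0.45 ± 0.28 (SE), with an adjusted p-value of 0.674, and the groups overlapped. The S copy, srebf1.S, had 37.3, 47.9 and 31.3 CPM in neil2 MO and 32.0, 49.2 and 24.8 CPM in control MO libraries, where replicate 2 was the highest of each group. The copies of srebf2 had log2 fold changes of 0.26 ± 0.33 (SE) for L and 0.12 ± 0.20 (SE) for S. Those of scap, the escort protein of SREBP, had -0.053 ± 0.25 (SE) for L and 0.13 ± 0.22 (SE) for S. SREBP activity is set by cleavage of the protein, which transcript counts do not measure.

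Among the genes for uptake, transport and export, 6 of 8 tested features had a fold change above 0 and 2 below. The transporter npc1.L, which releases cholesterol from lysosomes, had 47.3, 46.7 and 64.5 CPM in neil2 MO and 43.7, 34.5 and 43.7 CPM in control MO libraries. The groups did not overlap, and neil2 MO replicate 3 was the highest of all libraries. The log2 fold change was 0.43 ± 0.20 (SE), below the effect threshold, with an adjusted p-value of 0.380. With the block the adjusted p-value was 0.0511 at a log2 fold change of 0.42, so npc1.L was not called because of its effect size. Its partner npc2, which hands cholesterol to Npc1, had log2 fold changes of -0.019 ± 0.24 (SE) for L and 0.020 ± 0.20 (SE) for S.

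The LDL receptor, a classical SREBP target, had log2 fold changes of 0.30 ± 0.40 (SE) for ldlr.L and 0.15 ± 0.35 (SE) for ldlr.S. The carrier stard4.L had 0.21 ± 0.25 (SE). The sterol exporter abca1 had -0.28 ± 0.24 (SE) for its L copy and 0.22 ± 0.27 (SE) for its S copy. None of these features had groups that stood apart.

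Several members varied with replicate number. The DESeq2 likelihood ratio test of replicate number, with group kept in the model, called 10 of 57 members (17.5%, where 17.1% of all features were called). These were acly.L, acly.S, aacs.S, hmgcs1.L, hmgcs1.S, tm7sf2.L, srebf1.S, scap.L, ldlr.L and fads2.L. The F test of edgeR called 23 of 57 members (40.4%, against 31.4% of all features), and all 10 were among them. With DESeq2 the share of members called was close to that of all features. The labels do not say whether equal numbers stand for a shared clutch or day.

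The features aacs.S and hmgcs1.S moved in opposite directions between pools. The S copy of aacs was at 3.99 CPM in neil2 MO replicate 3 and at 2.34 CPM in control MO replicate 3, below the range from 10.2 to 19.6 CPM in replicates 1 and 2, with an adjusted p-value of 1.41e-14 for replicate number in DESeq2. HMG-CoA synthase, encoded by hmgcs1, feeds the mevalonate pathway. Its S copy had 5.16, 3.85 and 11.3 CPM in neil2 MO and 4.45, 3.00 and 15.6 CPM in control MO libraries. Replicate 3 was above replicates 1 and 2 in both groups, with an adjusted p-value of 3.03e-07. Its log2 fold change between MOs was -0.13 ± 0.81 (SE) without the block and 0.054 ± 0.27 (SE) with it.

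The L copy of hmgcs1 had 23.2, 15.0 and 30.7 CPM in neil2 MO and 27.9, 16.4 and 22.6 CPM in control MO libraries, with replicate 2 the lowest of each group. The same was true of ATP citrate lyase. The L copy, acly.L, had 57.0, 36.4 and 70.0 CPM in neil2 MO and 68.7, 51.0 and 83.2 CPM in control MO libraries. The S copy, acly.S, had 71.0, 44.0 and 79.4 CPM in neil2 MO and 71.0, 51.1 and 70.7 CPM in control MO libraries. For acly.L each neil2 MO library was below the control MO library of its number, and the log2 fold change was -0.26 ± 0.25 (SE), with an adjusted p-value of 0.891.

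**Figure D4:**
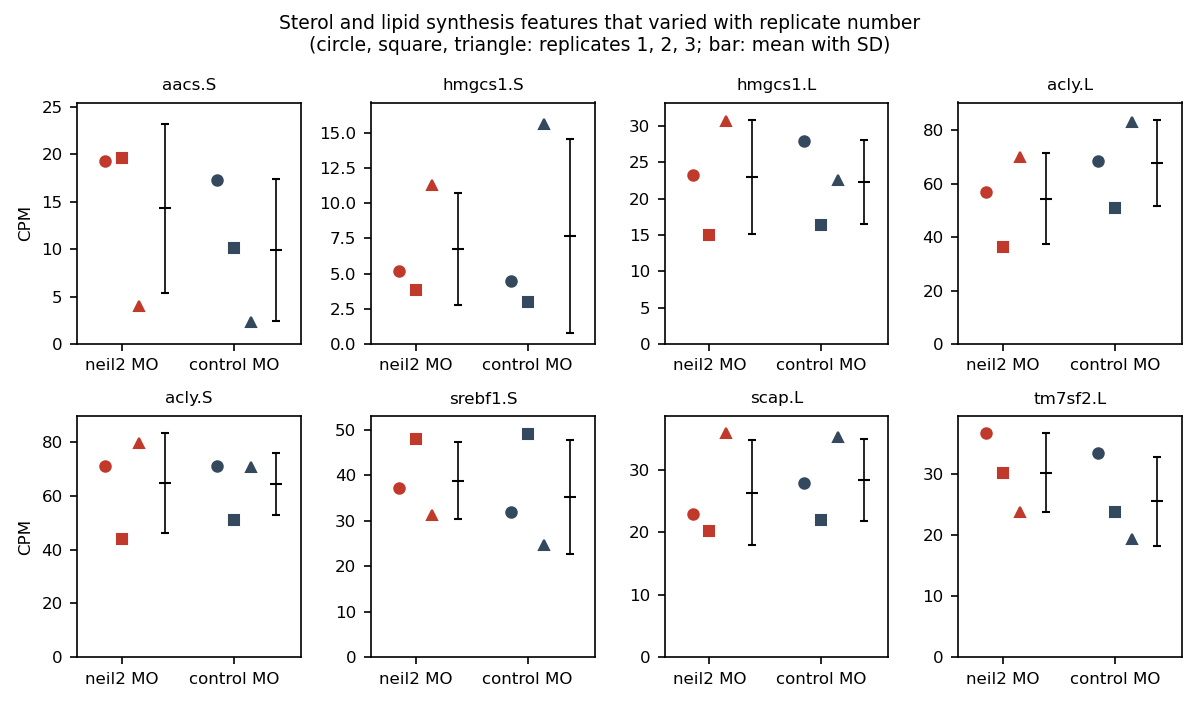
CPM (vertical axes, from 0) of 8 features called for replicate number, in neil2 MO libraries (red, left) and control MO libraries (blue, right), with circle, square and triangle for replicates 1, 2 and 3 and bars for the mean with SD. Replicate 3 is low for aacs.S (3.99 CPM in neil2 MO, 2.34 CPM in control MO) and high for hmgcs1.S (11.3 CPM in neil2 MO, 15.6 CPM in control MO).

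Whether the homeologs of a gene responded alike was tested through the log2 ratio of L to S counts with limma, over all 7285 homeolog pairs with enough reads. No ratio of the 20 member pairs tested was called at an adjusted p-value below 0.1, where 0.426% of all pairs were called. An unadjusted p-value below 0.05 was found for 4 of the 20 pairs (20%), against 10.3% of all pairs, and these were fdps, elovl5, abca1 and idi1. With the replicate block it was found for 8 of 20 pairs (40%), against 18.8% of all pairs, the further genes being aacs, fdft1, scd and acly. With the block 0 member pairs were called, where 2.81% of all pairs were. L and S fold changes had the same sign in 10 of 20 member pairs (50%) and in 65.5% of all pairs.

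Only pairs with an unadjusted p-value below 0.05 in limma are detailed here, so a lack of overlap in them adds no support. The lowest adjusted p-value of a member pair was that of fdps. The L copy gave 29.9%, 33.3% and 26.8% of the fdps counts in neil2 MO and 45.9%, 42.2% and 50.6% in control MO libraries. All neil2 MO libraries were below all control MO libraries. The difference in log2 ratio, neil2 MO minus control MO, was -1.0 with a 95% interval from -1.44 to -0.56, and the adjusted p-value was 0.141 in limma and 0.110 with the block.

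For elovl5 the L copy gave 32.3%, 25.9% and 33.0% of counts in neil2 MO and 45.0%, 40.6% and 39.7% in control MO libraries, again without overlap. The difference in log2 ratio was -0.72, with an interval from -1.15 to -0.29. The adjusted p-value was 0.283 in limma and 0.110 with the block, where it equalled that of fdps. For abca1 the shares were 53.5%, 57.3% and 55.6% in neil2 MO and 61.9%, 65.0% and 63.7% in control MO libraries. The difference was -0.48, with an adjusted p-value of 0.294 in limma and 0.122 with the block. In idi1 the L share was higher in neil2 MO, at 21.4%, 16.8% and 19.4%, against 16.4%, 9.96% and 13.8% in control MO libraries. The difference was 0.64, with an adjusted p-value of 0.460 in limma and 0.132 with the block. Reads that fit both copies equally were not counted, so these shares rest on reads that tell the copies apart.

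**Figure D5:**
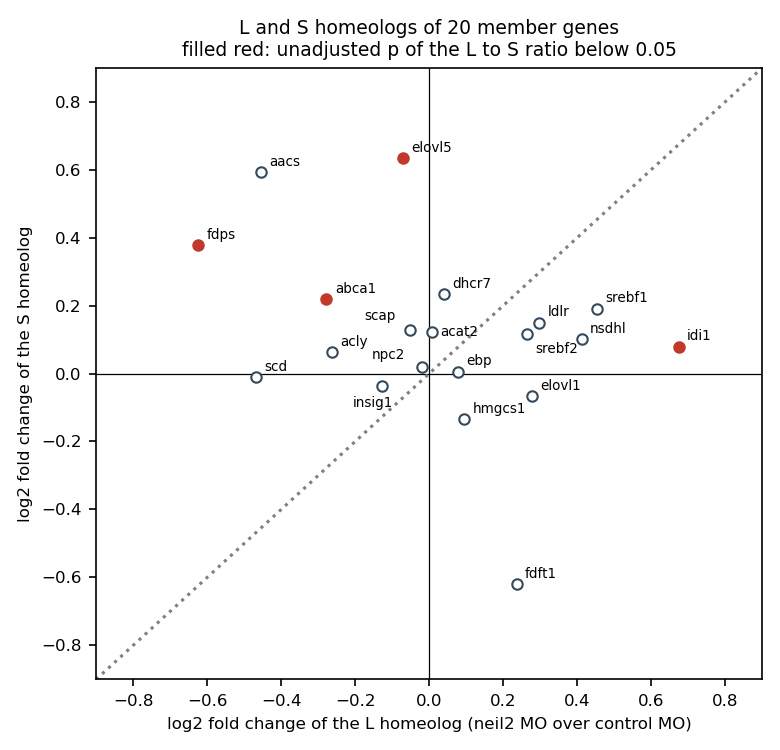
Log2 fold change (neil2 MO over control MO) of the L copy (horizontal axis) and the S copy (vertical axis) for the 20 genes with both copies tested, with equal change along the dotted line. Filled red points are the 4 genes with an unadjusted p-value of the ratio below 0.05 (fdps, elovl5, abca1 and idi1), none of which was called after adjustment.

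Other genes of sterol and lipid metabolism were followed through 6 wider lists, on further sterol and isoprenoid enzymes, sterol sensing, lipoprotein transport, fatty acid enzymes, glycerolipid synthesis and fatty acid oxidation. Of 109 genes, 100 were found, as 171 features, and 149 of these were tested. DESeq2 called 2 of them raised and 3 lowered, where 1.17% and 1.12% of all features were called. An unadjusted p-value below 0.05 was found for 14 of the 149, against 9.84% of all features tested. The median log2 fold change over these 149 features was 0.053.

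The raised features were agpat1.S and elovl2.L. Agpat1 acylates lysophosphatidic acid in glycerolipid synthesis. The S copy had 17.3, 12.9 and 9.90 CPM in neil2 MO and 6.73, 6.64 and 4.94 CPM in control MO libraries, and it rose by 1.18 ± 0.28 (SE) on the log2 scale, with an adjusted p-value of 0.00329 in DESeq2. The elongase elovl2.L, which like elovl5 acts on polyunsaturated fatty acids, had 17.9, 23.2 and 18.9 CPM in neil2 MO and 7.70, 13.5 and 10.3 CPM in control MO libraries. It rose by 0.98 ± 0.26 (SE), with an adjusted p-value of 0.0141. The groups did not overlap for either feature.

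The lowered features were fntb.S, etfb.L and apoe.S. Each raised or lowered feature is 1 named copy, and no other copy of these genes was called in the DESeq2 fit without the block. The beta subunit of farnesyltransferase, fntb.S, which attaches the product of Fdps to proteins, had 8.21, 7.59 and 7.91 CPM in neil2 MO and 17.5, 17.4 and 17.5 CPM in control MO libraries. It fell by 1.09 ± 0.20 (SE) on the log2 scale, with an adjusted p-value of 4.14e-05 in DESeq2. The apolipoprotein apoe.S fell by 0.73 ± 0.23 (SE) on that scale, with an adjusted p-value of 0.0823, and etfb.L, an electron carrier of fatty acid oxidation, fell by 0.73 ± 0.22 (SE), with 0.0488. With edgeR without the block only fntb.S of these 5 stayed below the threshold, at an adjusted p-value of 0.0435. Leaving out 1 library in turn removed the call of apoe.S in 4 of 6 fits, of etfb.L in 4, of elovl2.L in 2, of agpat1.S in 1 and of fntb.S in 0.

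Markers of 8 tissues or cell types of a tailbud embryo were read. The summed level did not overlap between groups for neural and muscle markers only. Of single features tested, 10.3% also lay lower in every neil2 MO library than in every control MO library. The summed level of 11 neural marker features lay between 659 and 764 CPM in neil2 MO and between 819 and 874 CPM in control MO libraries, and that of 8 muscle features between 2134 and 2186 CPM in neil2 MO and between 2270 and 2636 CPM in control MO libraries, without overlap, although 0 features of either list were called. The 6 features of multiciliated cells summed to between 192 and 298 CPM in neil2 MO and between 157 and 219 CPM in control MO libraries, and 1 of them, tekt2.L, was called raised, or 3 with the block. Markers of epidermis, cement gland, endoderm, notochord and blood overlapped between groups, and of their defining genes muc2.L and muc2.S were at 0 in every library. The overlap was narrow for notochord, with 228.5 to 272.3 CPM in neil2 MO and 272.1 to 288.9 CPM in control MO libraries. Endoderm had 176.9 to 237.2 CPM in neil2 MO and 231.6 to 265.8 CPM in control MO libraries. The median log2 fold change of tested features was -0.20 for both, 0.021 for epidermis and 0.15 for cement gland (3 of 5 features tested). For blood it was -0.49, from 2 tested of 6 features. For the lists without overlap it was -0.15 (neural) and -0.030 (muscle), and for multiciliated cells it was 0.47. The part of tissue composition in the values of acaca.L, elovl5.S, aacs.S and the other features named here was not tested.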

How the data were processed

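RNA-seq of polyadenylated RNA was carried out on 6 pools of stage 23 X. laevis embryos, 3 injected with neil2 MO and 3 with control MO. The deposited tables hold raw read counts for each gene feature. The authors mapped the reads to the v9.2 assembly with STAR 2.5.4b and summarised them with featureCounts 1.5.1 at default settings, under which strand is ignored and reads that map to several places or overlap several features are left uncounted. Values of near-identical homeologs and of overlapping or antisense genes are therefore uncertain. Libraries had no molecular identifiers, and the floors cover counting error only. The intervals rest on the DESeq2 standard error, which also includes the spread between pools. No coordinates or sequences are given, since no genome or sequence table of this build was used here.

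Groups and replicate numbers were taken from the titles. The labels do not say that pools came from separate clutches, so p-values measure the spread between these pools. No library pair matched within sampling noise (chi-square per degree of freedom between 14.3 and 39.0). Deviations from the group means correlated between libraries of equal number at 0.585, 0.566 and 0.632 over 23779 features (mean count 10 or more). The main fit and the main ratio test did not use replicate number, and the replicate block entered as an alternative. Nothing in the labels states what is shared.

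All 44958 features were fitted in R 4.3.3 by the Wald test of DESeq2 1.42.0, with independent filtering and no shrinkage, and calls needed an adjusted p-value below 0.1 together with a log2 fold change over 0.5 in size. Intervals are the estimate ± 1.96 SE. Alternatives were edgeR 4.0.16 with TMM factors, TMM size factors in DESeq2, no independent filtering, a mean count of at least 10, summed homeologs, other thresholds, a replicate block and leaving out each library. Ratios of L to S were tested with limma 3.58.1 on normalized counts plus 0.5, where each copy averaged 10 or more counts. The DESeq2 and edgeR tests were first run on simulated data, with and without the block. The tests of replicate number and the ratio test without the block were run on them as well. The simulated data held a replicate effect in chosen features only, so they do not show how fits without the block behave here.

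Values per library are given by rule for features called with or without the block, for the feature with the largest fold change of each role (mean normalized count of at least 50) and for their partner homeologs. The values of fdps, insig2, fasn, hmgcs1, acly and mvd, and of any other member outside that rule, were chosen after their values were seen. The members, gene lists and tests were chosen with earlier results of these data known.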

Additional observations from a re-analysis of the deposited data

How the results depend on the processing

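No member was called raised or lowered with TMM size factors, a minimum mean count of 10, summed homeologs, a stricter adjusted p-value threshold of 0.05, no effect threshold, no independent filtering, edgeR or in the 6 fits that each left out 1 library. Over all features, 268 were raised and 278 lowered with TMM size factors, and 272 and 285 with the minimum mean count. The counts were 211 and 180 at the threshold of 0.05, 278 and 264 without the effect threshold, and 227 and 206 without independent filtering. With summed homeologs, 213 genes were raised and 205 lowered. Such counts are a small share of all features, so 0 among the members is not a result about them. The replicate block gave 3 members raised in DESeq2, and 4 raised and 3 lowered in edgeR. The block without replicate 3, added after seeing the data, gave 1 member lowered, with no share over all features given for that fit. In the wider lists the 5 calls (2 raised, 3 lowered) held with the block. With it DESeq2 called 2 of 148 features raised and 4 lowered, where 3.14% and 2.74% of all features were called. With the block edgeR called 4 of 149 features raised and 6 lowered, where 4.11% and 5.27% of all features were called. The call of apoe.S was also lost without independent filtering. Over all features, the count raised was 275, and it was 693 with the block, 71 with edgeR, 980 with edgeR and the block, and between 142 and 311 in fits without 1 library. The count lowered was 262, and it was 604 with the block, 70 with edgeR, 1255 with edgeR and the block, and between 118 and 274 without 1 library. Among the fits without 1 library, the lowest counts came without neil2 MO replicate 1 (142 raised, 153 lowered) and without control MO replicate 1 (152 raised, 118 lowered). Features varying with replicate number included 10 members with DESeq2 and 23 with edgeR. The cause of these differences was not tested.

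The log2 fold change of hmgcs1.S turned positive with the block (0.054) and with edgeR and the block (0.0097). In fits without 1 library, signs turned within ranges from -0.69 to 0.91 for hmgcs1.S, -0.16 to 0.31 for hmgcs1.L, -0.097 to 0.26 for acly.S, -0.053 to 0.18 for idi1.S, -0.29 to 0.39 for nsdhl.S, -0.018 to 0.53 for srebf1.S and -0.24 to 0.13 for elovl5.L. TMM size factors moved the median log2 fold change by -0.0061. Depth limited the 11 untested member features, with mean normalized counts of at most 10.3.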
